A study of Mus musculus with 64 samples.

Results

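The potassium channel genes described here are all genes whose symbol starts with Kcn and that have a probe set in the deposited expression values. There were 62 of them, with 90 probe sets, among 12393 genes with a probe set. RNA came from inner ear epithelium and from the tissue next to it in CBA/J mouse embryos, with no mutant in any group. All tissue was held in dispase for dissection, for 8 to 10 minutes up to E10.5 and 20 to 25 minutes from E11, with no other treatment. This change of time falls inside the cochlear trend over E10.5 to E15 and the vestibular trend over E10.5 to E12 given below. The otic placode was taken at E9 and the otic vesicle at E9.5 and E10. The cochlea was taken at each stage from E10.5 to E15 and the vestibular organ at those up to E12. The saccule, and the utricle together with the 3 ampullae (called the utricle below), were taken from E12.5 to E15. Non-inner ear tissue next to the ear was taken at E9, and as pools over E9.5 to E10.5 and over E11 to E15. Each of the 32 groups had 2 arrays, each a pool of tissues, with duplicates from different litters, which gives 58 inner ear arrays and 6 arrays of surrounding tissue. A pool held 6 to 17 tissues where the labels give the number, so a value describes many embryos and all cell types of the piece at once.

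Potassium channels set the resting and active voltage of cells by letting potassium cross the membrane. They comprise pore-forming subunits, which open with voltage, calcium or other signals, and smaller beta subunits and partner proteins that alter how the pore opens. In the mature inner ear, Kcnq1 with its beta subunit Kcne1 secretes potassium into the endolymph, the fluid above the hair cells. Hair cells and ganglion neurons use voltage-gated and calcium-activated channels to shape their electrical responses.

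Values are normalized probe set signals in arbitrary units, with a floor of 10 below which no signal was given. Signals of different probe sets are not compared, since each probe set has its own brightness. Of the 62 genes, 35 had a probe set bright enough to be tested (at or above the array median on at least 2 of the 64 arrays), and 27 did not. A share of 56.5% of Kcn genes was tested, against 75.5% of all genes. At least 1 array was at the floor for 44 of the 90 probe sets. For the probe set that represents each gene, 25 genes had an array at the floor, 6 of them tested and 19 not. Among the tested genes, Kcns1 was at the floor on 33 arrays, Kcnd2 on 8, Kcnq1 and Kcnn1 on 3 each, Kcnj10 on 2 and Kcnj1 on 1. Among the untested genes, Kcne2 was at the floor on 43 arrays, Kcnj2, an inward rectifier, on 17 and Kcnj8, the pore of a channel gated by ATP, on 10. Kcne1, Kcnj15 and Kcns2 were each at the floor on 8.

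By subfamily, the tested genes were 8 of 14 voltage-gated genes of the Kcna, Kcnc, Kcnd and Kcns groups, 1 of 2 Kcnq genes, 2 of 4 Kcnh genes, 3 of 5 Kcne genes, 2 of 3 Kcnab genes, 2 of 4 Kcnip genes, 5 of 13 Kcnj inward rectifiers, 6 of 8 Kcnk two-pore-domain genes and 6 of 9 calcium- or sodium-activated genes. A change is called only with an adjusted p below 0.05, from limma over the 9352 tested genes, and a size of at least 1 log2. The p-values rest on the spread between the 2 pools of a group, which come from separate litters. For each gene this spread is estimated over all 32 groups together and adjusted with that of other genes. It is thus not the spread of the compared groups alone, and a group whose own arrays disagree more is tested with the shared value. Of the 35 tested Kcn genes, 10 were called in at least 1 of 13 comparisons and 25 in none. Among all genes tested, 36 percent were called in at least 1. The 10 were Kcna3, Kcnd2, Kcne3, Kcnh2, Kcnj10, Kcnk7, Kcnmb2, Kcnn1, Kcnq1 and Kcns1. Kcns1 and Kcnj10 passed the filter only through the groups in which they were high, so their places in this count and in those below lend it no support.

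**Figure D1:**
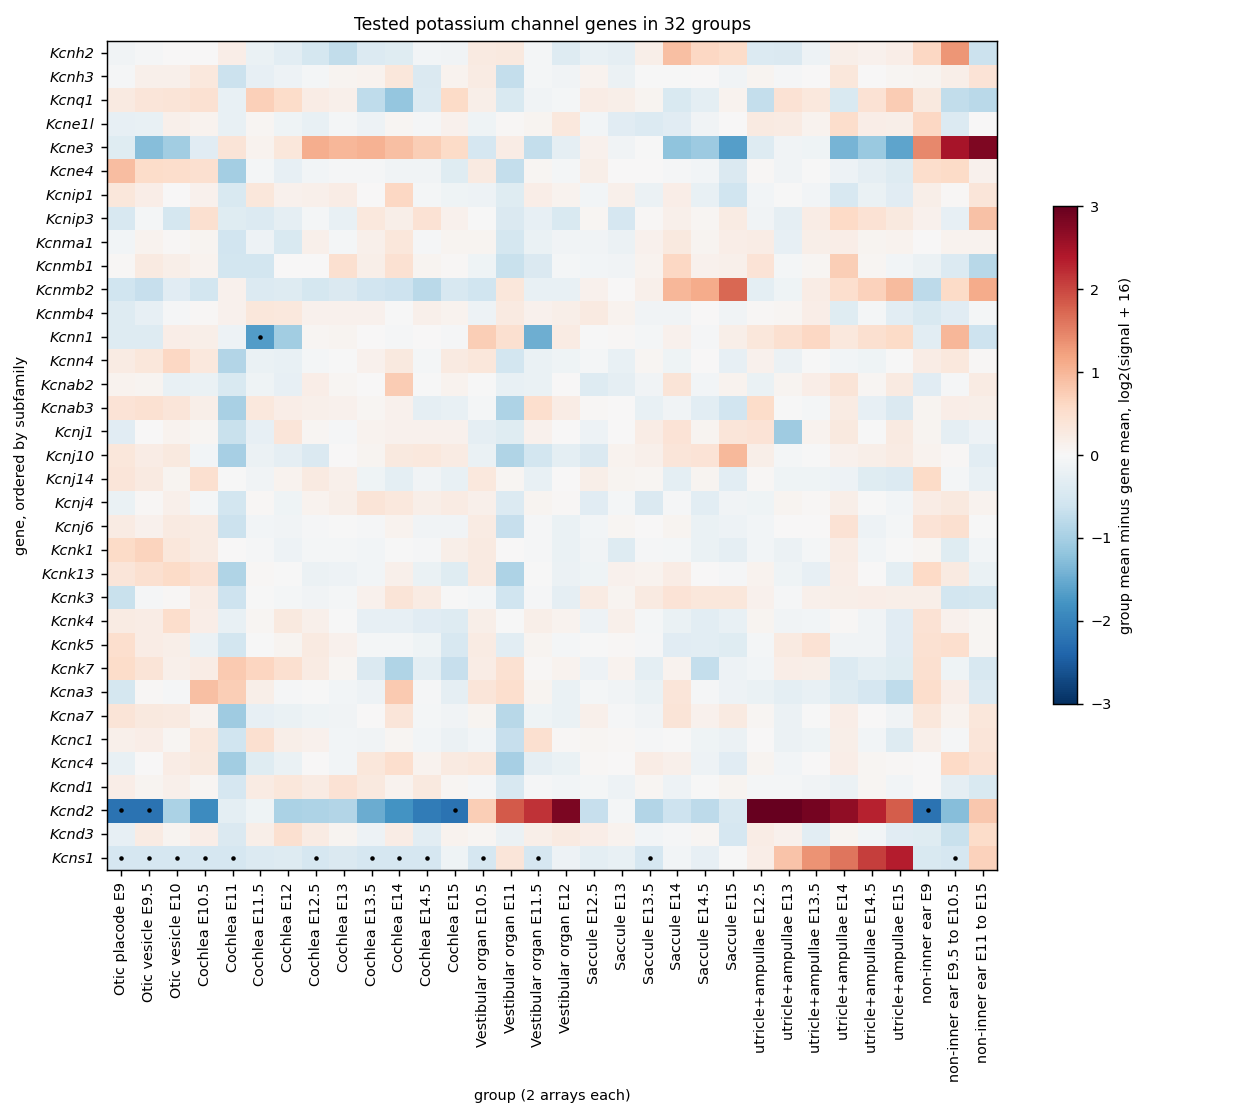
Each row is 1 of the 35 tested potassium channel genes and each column 1 of the 32 groups, with the colour giving the mean of the 2 arrays as log2(signal + 16) minus the gene's mean over the groups. Black dots mark groups with both arrays at the floor of 10. The strongest colours lie in the rows of Kcnd2, Kcne3, Kcns1 and Kcnmb2, and most other rows stay pale apart from the E11 columns.

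The epithelial markers summed to between 4244 and 8430 on inner ear arrays, against 313 to 1146 on arrays of surrounding tissue, and the mesenchymal markers to between 686 and 3385 on inner ear arrays, against 3233 to 13074 in surrounding tissue. The 4 E11 arrays stood apart, where the floor held 9.81 to 12.04 percent of all probe sets, against 5.43 to 8.63 percent on the other 60 arrays. Of the 35 tested Kcn genes, 21 had a lower mean at E11 than at both E10.5 and E11.5 in the cochlea and in the vestibular organ as well, which is 60 percent, while 27.2 percent of all genes tested did so. Kcne4 is an example, with 90.1 and 98.5 in the E11 cochlea, against 315.4 and 273.6 at E10.5 and 179.1 and 220.7 at E11.5. The part of these arrays in the results was not tested beyond the fits without them.

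Kcnd2, the pore subunit of a fast inactivating A-type channel of neurons, marked the utricle from the first stage at which that organ was taken. Its signal in the cochlea and in the saccule was far below that in the utricle, and its signal in the cochlea was also below that in the vestibular organ before E12.5. In the utricle the 2 arrays read 1715.3 and 1162.9 at E12.5, 1590.8 and 1152.2 at E13, 731.2 and 1043.5 at E13.5, 733.9 and 780.6 at E14, 571.8 and 609.4 at E14.5 and 379.3 and 444.5 at E15. All 12 of these arrays lay above every other array for Kcnd2 from E12.5 on, in any tissue.

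The cochlea gave a Kcnd2 signal of 16.8 and 17 at E10.5, 73.2 and 93.2 at E11, 93 and 98.8 at E11.5, 46.5 and 47.8 at E12, 61.2 and 37.2 at E12.5, 52 and 49.1 at E13, 27.7 and 27.6 at E13.5, 20.2 and 18.2 at E14, 13 or less at E14.5, and the floor of 10 on both arrays at E15. The saccule gave 159.4 and 16.4 at E12.5, 109.7 and 91.2 at E13, 41 and 61.8 at E13.5, 68.1 and 58.1 at E14, 61.6 and 48.3 at E14.5 and 51.4 and 96.5 at E15. The cochlea thus ended at the floor while the saccule did not, and the first pair of saccule arrays disagreed more than any later pair of that organ. The vestibular organ gave 191.4 and 180.1 at E10.5, 423.7 and 414.6 at E11, 473.8 and 593.7 at E11.5 and 770.7 and 925.6 at E12, all above the cochlea of the same stage.

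Before the organs separated, Kcnd2 was at the floor on both placode arrays and on both E9.5 vesicle arrays, and read 39.3 and 55.6 in the E10 vesicle. The surrounding tissue was at the floor at E9, read 28.7 and 41.1 in the E9.5 to E10.5 pool and 154.9 and 246 in the E11 to E15 pool. The inner ear minus its surroundings was not called in any window and was -0.35 log2 (95% interval -0.87 to 0.16) at E11 to E15, where the inner ear mean averages organs that differ for this gene.

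Between organs, the cochlea minus the vestibular organ over E10.5 to E12 was -2.70 log2 for Kcnd2 (SE 0.17, adjusted p 2.0e-15), the 1 Kcn gene called there, where 1.41 percent of all genes were called. Over E12.5 to E15 the cochlea minus the utricle was -4.35 log2 (SE 0.14, adjusted p 1.7e-25) and the saccule minus the utricle -3.37 log2 (SE 0.14, adjusted p 5.1e-22). The cochlea minus the saccule was -0.98 log2 (SE 0.14, adjusted p 3.4e-07), which misses the size of 1 log2 asked for. When each array was left out in turn, that difference lay between -1.18 and -0.78 log2.

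Over time, the fitted trend of Kcnd2 was -1.39 log2 in the cochlea over E10.5 to E15 (SE 0.25, adjusted p 7.3e-06) and -1.78 log2 in the utricle over E12.5 to E15 (SE 0.30, adjusted p 1.1e-05). A trend here is the slope of a straight line fitted through the stage means, multiplied by the length of the window in days, and not the change between its first and last stage. The cochlear signal was low at E10.5, highest at E11.5 and low again at the end, and the trend over E12.5 to E15 alone was -1.50 log2 (SE 0.30, adjusted p 0.00015). The saccular trend of -0.12 log2 (SE 0.30) has no settled sign, since it was 0.75 log2 without the first E12.5 array (adjusted p 0.0073) and -0.99 log2 without the second (adjusted p 0.00049). The cochlear and utricular trends over the same stages differed by 0.27 log2 (95% interval -0.57 to 1.12). In the vestibular organ Kcnd2 rose by 1.98 log2 between E10.5 and E12 (SE 0.33, adjusted p 3.5e-05). Within the stages E11 to E12, which share 1 time in dispase, that trend was 0.98 log2 with an adjusted p of 0.054. From the E9 placode to the E10 vesicle the change was 1.28 log2 (SE 0.35, adjusted p 0.0070), measured from 2 arrays at the floor, and without the second E10 array its adjusted p was 0.077. Of 11 tested ganglion neuron markers, 1 rose and 8 fell in the cochlear trend (median -1.31 log2), and 1 was higher and 4 were lower in the cochlea minus the utricle (median -0.68 log2). Their sum at E15 was 2588 to 2750 in the cochlea, 6143 to 6275 in the utricle and 6758 to 7644 in the saccule. In the utricle their sum was 3871 to 5385 at E12.5. For the saccule minus the utricle, 0 of these markers were called (median -0.004 log2). In the vestibular organ trend 1 rose and 4 fell (median -0.77 log2). The part of these markers in the values of Kcnd2 was not tested. In pieces of tissue such as these, fewer cells that make a transcript and less of it per cell cannot be told apart.

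A second kept probe set of Kcnd2 gave -4.27 log2 (SE 0.14) for the cochlea minus the utricle, -2.77 (SE 0.17) for the cochlea minus the vestibular organ and -1.54 (SE 0.28) for the utricular trend. The remaining probe set was at or below 44.1 on all arrays and was not kept. The Kcn gene whose pattern over the 29 inner ear groups was most like that of Kcnd2 was Kcns1, with a Pearson correlation of 0.66. Among all genes, Sema3e, a secreted guidance protein, had 0.91, Vit, an extracellular matrix protein, 0.90 and Gm20559 also 0.90. These correlations describe 29 groups in which many genes differ between organs and stages, and carry no test.

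**Figure D2:**
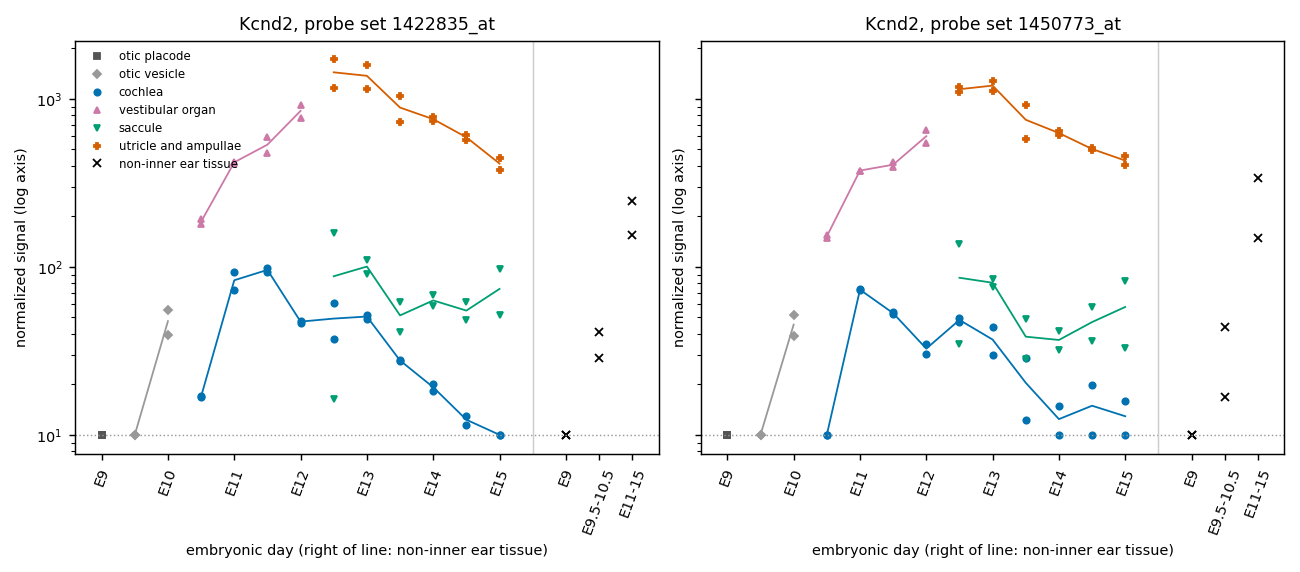
Normalized signal of 2 Kcnd2 probe sets on a log axis against embryonic day, with a symbol for each array, lines through the group means and the surrounding tissue (crosses) right of the vertical line. The dotted line is the floor of 10. In both panels all arrays of the utricle and the vestibular organ lie above the cochlea at every shared stage.

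The other A-type pore genes did not share this pattern. Kcnd1 gave 0.31 log2 for the cochlea minus the utricle (95% interval 0.18 to 0.44, adjusted p 0.00018) and read 53.7 to 150.1 over all arrays. Kcnd3 was between 22.5 and 143.1, with 0.81 log2 for the inner ear minus its surroundings at E9.5 to E10.5 (adjusted p 0.0054) and -0.54 log2 at E11 to E15 (adjusted p 0.025). Neither reached 1 log2 in any comparison. The Kcnip proteins bind the A-type pores and bring them to the membrane. Kcnip1 gave 0.34 log2 for the cochlea minus the utricle (95% interval 0.20 to 0.47) and Kcnip3 gave -0.93 log2 for the inner ear minus its surroundings at E11 to E15 (adjusted p 0.00019), while Kcnip2 and Kcnip4 were too dim to be tested, with medians of 28.9 and 37.5. The Kcnip3 probe set used was brightest in the late surrounding tissue, at 218.5. A second kept Kcnip3 probe set was brightest in the utricle at E12.5, at 99.8, and no surrounding array reached the array median on it.

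Kcns1, a silent subunit that does not conduct by itself and alters the Kcnb channels, appeared late and in the utricle. The utricular arrays read 19.7 and 35.2 at E12.5, 39.9 and 65.2 at E13, 88.6 and 69.3 at E13.5, 59.6 and 154.4 at E14, 170.9 and 115.1 at E14.5 and 186 and 160.6 at E15. All 20 cochlear arrays were at or below 27.8 and all 12 saccular arrays at or below 26. The placode and vesicle arrays were all at the floor, and the late surrounding tissue read 42.4 and 44.7. Kcns1 passed the filter on dim probe sets only through 6 utricular arrays, so its calls under that filter are not independent of its being high there, and the values here come from the fit without the filter. In that fit Kcns1 rose in the utricle by 2.09 log2 (SE 0.21, adjusted p 7.7e-10). The cochlea minus the utricle was -1.85 log2 (SE 0.10, adjusted p 8.0e-18) and the saccule minus the utricle -1.63 log2 (SE 0.10, adjusted p 4.4e-16). The cochlear trend minus the utricular trend was -1.86 log2 (SE 0.30, adjusted p 5.8e-05). With so many arrays at the floor, these values are set against the floor and not against a measured level.

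Kcnd2 and Kcns1 were both higher in the utricle than in the cochlea and the saccule, although their utricular trends ran in opposite directions, and the 250 bases before the start of each gene are shown for that reason, from RefSeq on GRCm38.p6, 5′ to 3′ on the strand of the gene. Capitals mark the GC box GGGCGG, searched on both strands, which occurs once in each.
Kcnd2, chr6:21215096-21215345, plus strand: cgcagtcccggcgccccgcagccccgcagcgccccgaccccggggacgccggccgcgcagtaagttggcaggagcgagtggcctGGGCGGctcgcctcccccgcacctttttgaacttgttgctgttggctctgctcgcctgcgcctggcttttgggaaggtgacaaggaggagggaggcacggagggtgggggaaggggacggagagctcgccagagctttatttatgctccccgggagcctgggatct
Kcns1, chr2:164171114-164171363, minus strand: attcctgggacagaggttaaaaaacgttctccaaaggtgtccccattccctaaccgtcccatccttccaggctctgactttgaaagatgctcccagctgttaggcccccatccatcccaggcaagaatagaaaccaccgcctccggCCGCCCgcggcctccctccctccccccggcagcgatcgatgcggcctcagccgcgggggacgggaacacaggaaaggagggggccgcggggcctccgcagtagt
The GC content was 68.8% for Kcnd2, with 22 CpG pairs, and 63.2% for Kcns1, with 17. The GC box began 166 bases before the start of Kcnd2 and 104 bases before that of Kcns1, where it lies on the opposite strand. Neither window holds TATAAA, and the E-box CANNTG, which is its own reverse complement, occurs once for Kcns1 and not for Kcnd2. Of 62 Kcn genes, 50 had at least 1 promoter in the table, 68 promoters in all. The GC box was found in 45.6% of these and in 32.7% of all 32851 promoters, the E-box in 66.2% of both, and TATAAA in 1.5% of the Kcn promoters and 12.4% of all. These are matches of letters and not shown to be binding sites.

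Among the other voltage-gated genes, Kcna3, a delayed rectifier best known from T cells, was lower in the placode than in its surroundings, with 28.9 and 22.7 in the placode and 69.4 and 71.5 in the surrounding tissue at E9. The difference was -1.05 log2 (SE 0.24, adjusted p 0.0013). It fell short of 1 log2 without the second placode array, at -0.94 log2. In the cochlea Kcna3 read 95.3 and 99 at E10.5 and 37.7 and 30.3 at E15, and its trend of -0.73 log2 (adjusted p 0.00027) missed the size. Kcna7 stayed at or above the array median on all 64 arrays, as did Kcnab3, Kcne4, Kcnj4, Kcnk3 and Kcnmb1. Kcnc1 and Kcnc4, pores of fast repolarizing channels, were called in no comparison and read 81.6 to 229.1 and 78.6 to 319.1, although 1 further probe set of Kcnc4 gave -1.67 log2 for the vestibular organ trend in a fit of every probe set alone (SE 0.40, adjusted p 0.0033). Kcna1, Kcna2, Kcna4, Kcna5, Kcna6 and Kcns2 were not tested. In a fit without the filter on dim probe sets, Kcna5 gave 1.09 log2 for the saccular trend (SE 0.25, adjusted p 0.0012).

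Kcnq1, the pore that secretes potassium into endolymph once the ear is mature, was dim in every group, between the floor and 119. The placode read 49.9 and 61.1, the vesicle 67 and 54 at E9.5 and 51.3 and 72.3 at E10. In the cochlea it read 55.7 and 76.5 at E10.5, 36.7 and 32.5 at E11, 68.1 and 95.4 at E11.5, 48.8 and 101.4 at E12, 56 and 50.5 at E12.5, 40.3 and 62.1 at E13, 23.4 and 15 at E13.5, 10 and 11.2 at E14, 31.5 and 25.7 at E14.5 and 119 and 42.6 at E15. The cochlear signal was lowest at E14, with 1 array at the floor, and the 2 arrays at E15 differed widely. In the utricle Kcnq1 read 10 and 33.7 at E12.5, 62.8 and 65.5 at E13, 53.6 and 62.5 at E13.5, 10 and 56 at E14, 66 and 63.1 at E14.5 and 101.6 and 70.9 at E15. The saccule stayed between 23.2 and 66.7.

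The inner ear was above its surroundings for Kcnq1 at E9.5 to E10.5 by 1.08 log2 (SE 0.28, adjusted p 0.0023), where the surrounding arrays read 16.4 and 23.5. Without the first of those arrays the adjusted p was 0.072. At E11 to E15 the difference was 0.81 log2 (adjusted p 0.0062), with 25.9 and 11.3 in the surroundings. The cochlear trend of -0.74 log2 over E10.5 to E15 (95% interval -1.23 to -0.24) missed the size. So did the utricular trend of 0.96 log2 over E12.5 to E15 (95% interval 0.36 to 1.55), and each passed it in some alternative fits. Over E12.5 to E15 alone the cochlear trend of Kcnq1 was -0.04 log2 (SE 0.29). The cochlear minus the utricular trend over those stages was not called, and lay between -1.43 and -0.57 log2 when each array was left out in turn. The genes whose pattern over the 29 groups was most like that of Kcnq1 were Emc6 at a correlation of 0.70, Mrpl43 at 0.67 and Ndufb9 at 0.65, all lower than for Kcnd2.

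Kcnq5, a neuronal relative, was not tested and lay between the floor and 57.6. It read 57.6 and 39.7 in the saccule at E15, against 29.3 and 34.8 in the utricle and 12.3 and 32 in the cochlea of that stage. In the fit without the filter its saccular trend was 0.92 log2 with an adjusted p of 0.0023.

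Kcne1, the beta subunit that slows Kcnq1, was not tested either, since only 1 array was at or above the array median. In the utricle it read 18.1 and 10 at E12.5, 35.8 and 18.4 at E13, 31.1 and 30.5 at E13.5, 16.2 and 33.6 at E14, 65.8 and 44.1 at E14.5 and 95.8 and 61.2 at E15. The cochlea lay between 10 and 27.3 on 19 of its 20 arrays and read 51 on the other, at E15. The saccule lay between 10 and 26.1. In the fit without the filter, the utricular trend of Kcne1 was 1.46 log2 (SE 0.23, adjusted p 1.0e-05) and the cochlear trend minus the utricular trend was -1.04 log2 (adjusted p 0.057).

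**Figure D3:**
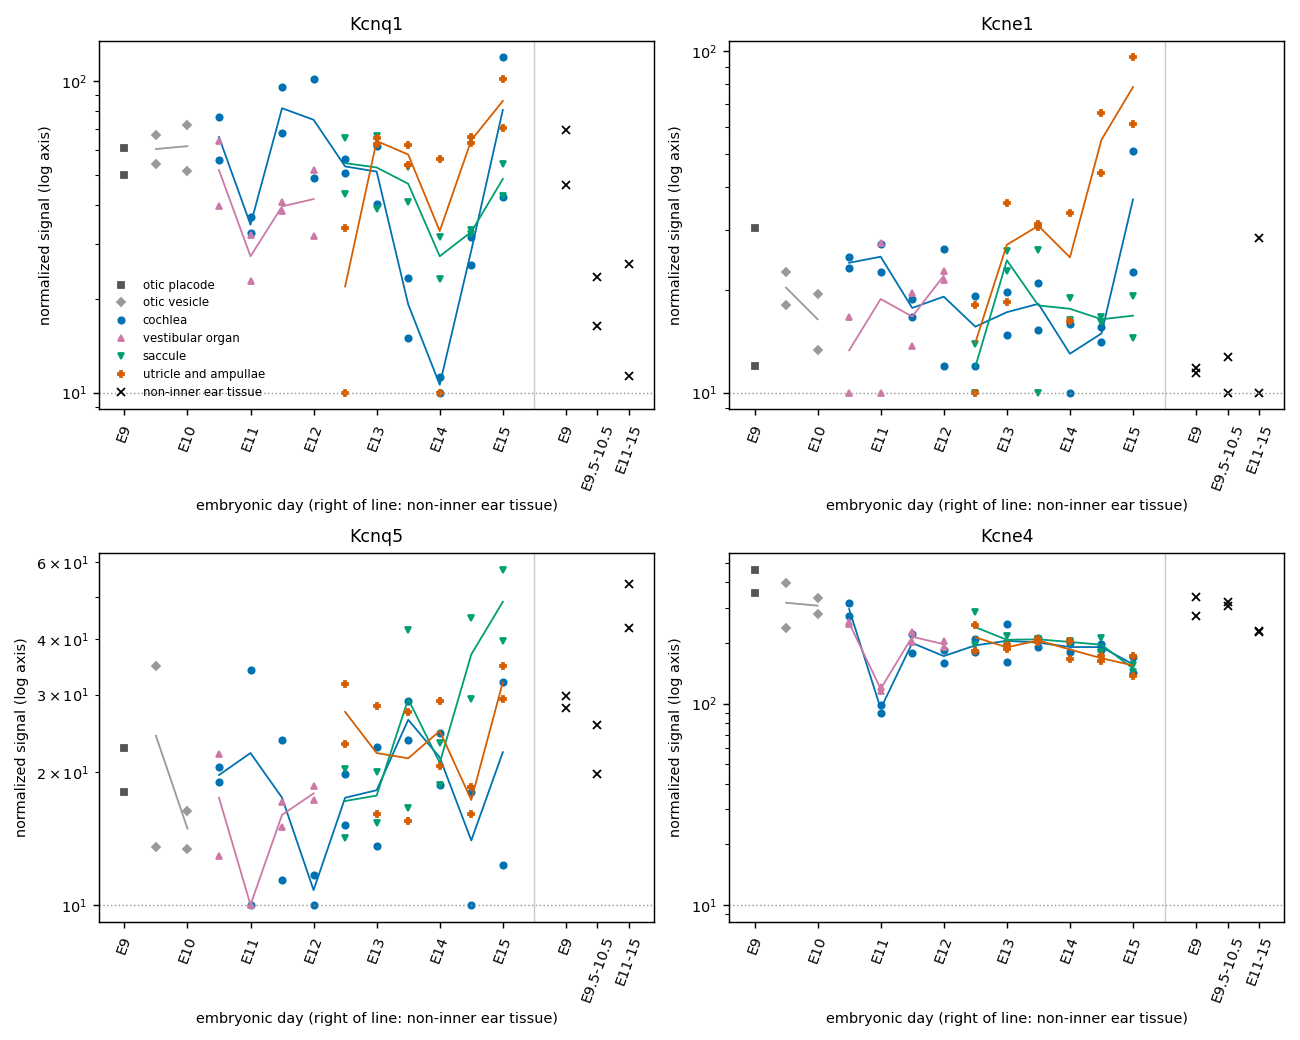
Normalized signal on a log axis against embryonic day for Kcnq1, Kcne1, Kcnq5 and Kcne4, with a symbol for each array, lines through the group means and the surrounding tissue (crosses) right of the vertical line. The dotted line is the floor of 10. The group means of Kcne1 are highest in the utricle at E14.5 and E15, and Kcne4 lies far above the floor on every array.

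Kcne3, which in the gut keeps Kcnq1 channels open, was the beta subunit that differed most between organs. In the cochlea it read 92.4 and 42.2 at E10.5, 114.8 and 115.6 at E11, 83.2 and 99 at E11.5, 95.3 and 127.1 at E12, 188 and 207.3 at E12.5, 178.2 and 191.7 at E13, 172.9 and 209.1 at E13.5, 138.3 and 209.6 at E14, 172.2 and 129.9 at E14.5 and 151.9 and 117 at E15. The saccule read 130.2 and 64.6 at E12.5 and 18.7 or less at E15, and the utricle 68.9 and 52.4 at E12.5 and 18.5 and 15.9 at E15. From E12.5 on, the 12 cochlear arrays lay between 117 and 209.6, above all 12 utricular arrays, which lay between 15.9 and 89.7. In the saccule 2 arrays, at 130.2 and 119.1, lay inside the cochlear range.

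Kcne3 was 1.68 log2 higher in the cochlea than in the utricle (SE 0.14, adjusted p 2.7e-13) and 1.55 log2 higher in the cochlea than in the saccule (SE 0.14, adjusted p 1.9e-12). It fell in the utricle by 1.47 log2 (SE 0.28, adjusted p 8.8e-05) and in the saccule by 1.86 log2 (SE 0.28, adjusted p 1.8e-06). The cochlear trend over E10.5 to E15 was 0.91 log2 (adjusted p 0.0011), short of the size, and -0.51 log2 over E12.5 to E15 alone.

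Kcne3 was nevertheless brightest outside the ear. The surrounding tissue read 254.9 and 257.7 at E9, 632.8 and 465.6 in the E9.5 to E10.5 pool and 593.7 and 777 in the E11 to E15 pool. Every inner ear array was below all 6 of these. The inner ear minus its surroundings was -1.81 log2 at E9 (SE 0.33, adjusted p 0.00012), -3.40 log2 at E9.5 to E10.5 (SE 0.27, adjusted p 2.1e-13) and -2.92 log2 at E11 to E15 (SE 0.24, adjusted p 3.2e-13). Beside this, the summed mesenchymal markers at E12.5 to E15 were 755 to 1607 in the cochlea, 1965 to 3385 in the saccule and 978 to 2020 in the utricle, and their part in the values of Kcne3 was not tested. The genes most like Kcne3 over the 29 inner ear groups were Fam184b and Btg1 at 0.82 and Cacng4 at 0.81.

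Kcne4, a beta subunit that inhibits several pores, lay between 90.1 and 462.4 and was called nowhere. The placode gave its highest values, 354.7 and 462.4, and the saccular trend was -0.47 log2 (95% interval -0.79 to -0.16). Kcne1l lay between 65.9 and 173. Its placode arrays read 97.1 and 72.9, against 170.4 and 162.2 in the surrounding tissue at E9, a difference of -0.86 log2 (adjusted p 0.0026) that missed the size. For Kcne1l the saccule minus the utricle was -0.47 log2 (SE 0.09, adjusted p 2.6e-05). Kcne2 was not tested, with a median at the floor and a single array above 23.4, at 54.7 in the saccule at E15. The genes most like Kcne4 were Gpaa1 at 0.92, H1f10 and Dusp10 at 0.91, and those most like Kcne1l were Homer2 and Timp3 at 0.77 and Ifna4 at 0.76.

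Kcnmb2, a beta subunit that makes the large-conductance calcium-activated channel inactivate, rose in the saccule and in the utricle, while its cochlear trend over the same stages was -0.14 log2. The saccule read 72 and 51.8 at E12.5, 71.7 and 42.8 at E13, 70.6 and 55.3 at E13.5, 106.1 and 149.4 at E14, 146.3 and 129.2 at E14.5 and 205.3 and 232.5 at E15. The utricle read 34.6 and 49 at E12.5, 50.2 and 46.7 at E13, 75.7 and 58.5 at E13.5, 85.5 and 83.2 at E14, 83.8 and 113.6 at E14.5 and 133.9 and 108.7 at E15. The cochlea stayed between 21 and 40.6 over the same stages. From E13.5 on, all saccular and utricular arrays were above all cochlear ones. These values come from the only kept Kcnmb2 probe set. The other Kcnmb2 probe set lay between 40.4 and 74.1 over all arrays, was highest in the vestibular organ at E11.5, and was not tested. Its highest array was thus not one of the late saccular arrays, where the kept probe set was highest.

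The rise of Kcnmb2 was 1.74 log2 in the saccule (SE 0.19, adjusted p 1.2e-09) and 1.29 log2 in the utricle (SE 0.19, adjusted p 9.7e-07). The cochlear trend minus the utricular trend was -1.43 log2 (SE 0.26, adjusted p 0.00028). The cochlea minus the saccule was -1.27 log2 (SE 0.09, adjusted p 5.3e-15), and the cochlea minus the utricle was -0.89 log2 (adjusted p 9.9e-11), short of the size. Beside these rises, the summed hair cell markers were 1280 to 1575 in the saccule at E12.5 and 8332 to 10559 at E15, 872 to 936 in the utricle at E12.5 and 5122 to 6412 at E15, and 1052 to 1175 in the cochlea at E12.5 and 1576 to 2384 at E15. All 10 hair cell markers rose in the saccule and 7 of 10 in the utricle, and their part in the rise of Kcnmb2 was not tested. Nor was it tested for Kcns1, which rose in the utricle but had a saccular trend of 0.25 log2 (SE 0.22).

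For Kcnmb2 the inner ear minus its surroundings was -1.11 log2 at E9.5 to E10.5 (SE 0.18, adjusted p 3.7e-06) and -1.06 log2 at E11 to E15 (SE 0.16, adjusted p 4.5e-07). Surrounding tissue read 90.5 and 87.7 in the E9.5 to E10.5 pool and 120.2 and 156.9 in the E11 to E15 pool. Without the second array of the later pool the difference was -0.91 log2. The pore of the same channel, Kcnma1, was called nowhere and lay between 42.5 and 127.8. Its other beta subunits Kcnmb1 and Kcnmb4 were also called nowhere, with 0.83 log2 (adjusted p 1.6e-05) for Kcnmb1 in the late inner ear minus its surroundings.

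**Figure D4:**
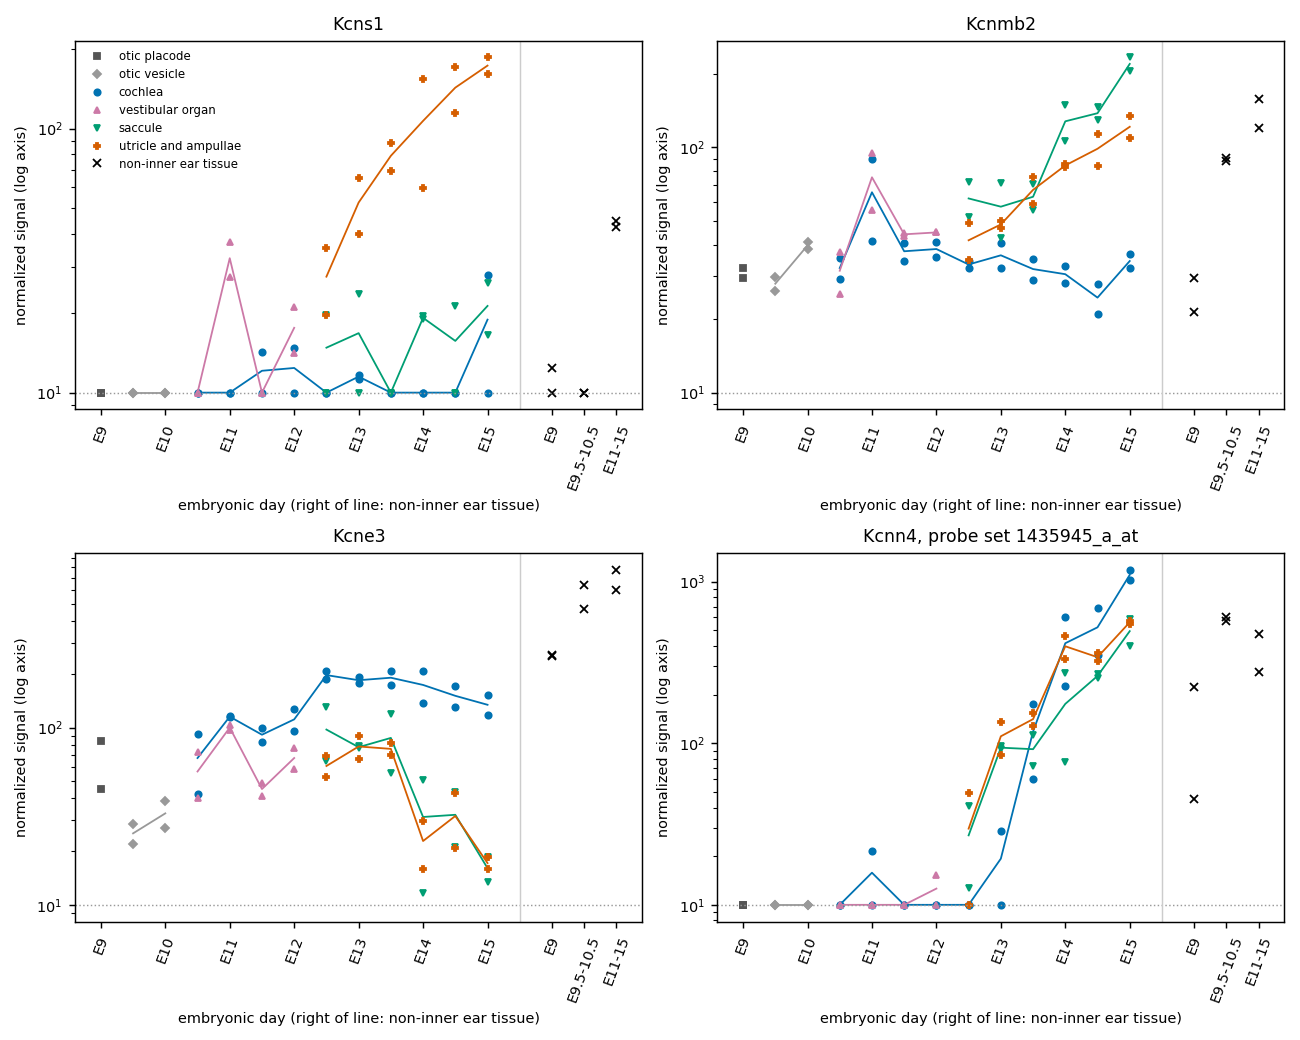
Normalized signal on a log axis against embryonic day for Kcns1, Kcnmb2, Kcne3 and the more variable probe set of Kcnn4, with a symbol for each array, lines through the group means and the surrounding tissue (crosses) right of the vertical line. The dotted line is the floor of 10. Kcns1 separates in the utricle and Kcnmb2 in the saccule and utricle, Kcne3 stays high in the cochlea, and the Kcnn4 probe set is at 60.2 or more on every inner ear array from E13.5 on.

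Kcnn4, an intermediate-conductance calcium-activated channel of epithelia and blood cells, is represented by a probe set that was called nowhere and lay between 63.9 and 218.6. A second Kcnn4 probe set, which the rule for one probe set a gene leaves out and which was chosen here after its values were seen, behaved otherwise. In the cochlea it was at the floor on 9 of the 10 arrays up to E12.5 and read 28.7 and 10 at E13, 60.2 and 175.9 at E13.5, 225.2 and 605.3 at E14, 688.6 and 353.2 at E14.5 and 1015.5 and 1183.7 at E15. The saccule read 41 or less at E12.5 and 401.9 and 584.4 at E15. The utricle read 10 and 49.3 at E12.5 and 572.3 and 547.2 at E15. The surrounding tissue read 45.3 and 221.2 at E9, 566 and 606.1 at E9.5 to E10.5 and 274.2 and 474.9 at E11 to E15.

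In the fit of every probe set alone, this Kcnn4 probe set rose by 5.65 log2 in the cochlea over E10.5 to E15 (SE 0.33, adjusted p 2.0e-17), by 3.57 log2 in the utricle (SE 0.40, adjusted p 5.4e-09) and by 3.25 log2 in the saccule (SE 0.40, adjusted p 3.1e-08). In that fit 15.5, 7.59 and 7.08 percent of all 14014 probe sets were called for the cochlear, utricular and saccular trends. The cochlear minus the utricular trend over E12.5 to E15 was 2.21 log2 (SE 0.56, adjusted p 0.0100). The inner ear minus its surroundings was -2.21 log2 at E9, -4.53 log2 at E9.5 to E10.5 and -2.02 log2 at E11 to E15 for the same probe set, with adjusted p-values of 0.00075, 1.5e-12 and 4.1e-06. The 2 Kcnn4 probe sets therefore disagree, and which of them follows the transcript was not tested.

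Kcnn1, a small-conductance calcium-activated channel, was called in the vestibular organ at -1.02 log2 between E10.5 and E12 (SE 0.18, adjusted p 6.3e-05). Its arrays there read 122.7 and 121.4 at E10.5, 97.3 and 101.2 at E11, 10 and 18.6 at E11.5 and 76.1 and 89.5 at E12. In the cochlea at E11.5 Kcnn1 was at the floor on both arrays, beside 57.4 and 58.4 at E11. A second kept Kcnn1 probe set was at the floor on no array. It lay between 27.9 and 121.5, highest in the utricle at E15. The call ended without the E11.5 arrays, where the trend was -0.47 log2 with an adjusted p of 0.092, and within E11 to E12 it was -0.23 log2 with an adjusted p of 0.46. Kcnn2 and Kcnn3 were not tested.

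Kcnh2, the pore of a delayed rectifier that shapes repolarization in heart, rose in the saccule by 1.04 log2 (SE 0.18, adjusted p 1.8e-05). The saccule read 48.6 and 47 at E12.5, 42.8 and 48.7 at E13, 69.3 and 67.2 at E13.5, 105.4 and 146.4 at E14, 95.6 and 102.4 at E14.5 and 82.5 and 104.6 at E15. Its highest arrays were those of E14, and without the E14 arrays the trend of Kcnh2 fell below 1 log2, to 0.95. Without the second E15 array it was also below 1. The utricular trend was 0.74 log2 (adjusted p 0.0016), and the cochlear trend over the same stages was 0.59 log2 (SE 0.18), so Kcnh2 rose in the other organs as well. For Kcnh2 the inner ear minus its surroundings was -1.27 log2 at E9.5 to E10.5 (SE 0.17, adjusted p 1.6e-07), where surrounding tissue read 147.7 and 194.8, the 2 highest values of the gene.

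Among inward rectifiers, Kcnj10, which in the mature stria vascularis sits in intermediate cells, read 20.9 and 34.3 at E12.5 and 105.4 and 92.7 at E15 in the saccule. Only these last 2 arrays took Kcnj10 past the filter, so its call under the filter is not independent of them. In the fit without the filter it rose in the saccule by 1.17 log2 (SE 0.25, adjusted p 0.00055). Beside it, the summed glia and neural crest markers in the saccule were 1795 to 2868 at E12.5 and 5554 to 5736 at E15, the hair cell markers rose as given above, and their part in the rise of Kcnj10 was not tested. Under the filter and without the first E13 saccule array the trend was 0.97 log2. The cochlear trend of Kcnj10 was 0.89 log2 (adjusted p 0.00044), with 48.7 and 30 at E10.5, 10 and 17.1 at E11 and 47.2 and 60.3 at E15. The other 4 tested inward rectifiers, Kcnj1, Kcnj4, Kcnj6 and Kcnj14, were called nowhere, although 1 further probe set of Kcnj6 gave -1.08 log2 for the cochlear trend in the fit of every probe set alone (SE 0.19, adjusted p 8.3e-06) and 1.03 log2 for the E10 vesicle minus the E9 placode (SE 0.27, adjusted p 0.0056), and another, with 6 arrays at the floor, gave 1.82 log2 for the vestibular organ trend (SE 0.41, adjusted p 0.0015).

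Kcnk7, a two-pore-domain subunit, fell in the cochlea, with a fitted trend of -1.44 log2 (SE 0.21, adjusted p 1.9e-07). The cochlea read 64.8 and 54.4 at E10.5, 109 and 84 at E11, 67.5 and 105.3 at E11.5, 67.9 and 81.5 at E12, 61.6 and 59 at E12.5, 49.5 and 53 at E13, 45.5 and 20.8 at E13.5, 19.8 and 16.9 at E14, 29.8 and 45.4 at E14.5 and 19 and 29.7 at E15. All 8 arrays from E13.5 on were below all 12 earlier ones. Over E12.5 to E15 alone the trend of Kcnk7 was -0.88 log2, short of the size. The other 5 tested Kcnk genes, Kcnk1, Kcnk3, Kcnk4, Kcnk5 and Kcnk13, were not called, but 1 further probe set of Kcnk1 was higher in the inner ear than in its surroundings, by 1.77 log2 at E9 (SE 0.21, adjusted p 5.7e-08) and by 1.88 log2 at E9.5 to E10.5 (SE 0.17, adjusted p 1.6e-11).

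Counted by comparison, 0 Kcn genes had a rising and 2 a falling trend in the cochlea over E10.5 to E15 (Kcnk7 and Kcnd2), where 14.9 percent of all genes tested were called. In the utricle 2 rose (Kcns1 and Kcnmb2) and 2 fell (Kcnd2 and Kcne3), against 7.53 percent of all genes. In the saccule 3 rose (Kcnmb2, Kcnj10 and Kcnh2) and 1 fell (Kcne3), against 7.08 percent. In the vestibular organ Kcnd2 rose and Kcnn1 fell, against 4.02 percent. Kcnd2 was the 1 Kcn gene called between the E10 vesicle and the E9 placode, against 5.29 percent. The medians over the 35 genes were 0.09 log2 in the cochlea, -0.01 in the utricle and -0.04 in the saccule, beside 0.06, 0.00 and -0.02 over all genes.

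Against the surrounding tissue, 0 Kcn genes were higher and 2 lower in the E9 placode (Kcne3 and Kcna3), where 5.93 percent of all genes were called. At E9.5 to E10.5, 1 was higher (Kcnq1) and 3 were lower (Kcne3, Kcnh2 and Kcnmb2), against 8.4 percent, and at E11 to E15, 0 were higher and 2 lower (Kcne3 and Kcnmb2), against 15.6 percent. Between organs at E12.5 to E15, 1 was higher and 2 were lower in the cochlea than in the utricle (Kcne3 against Kcnd2 and Kcns1), where 3.07 percent of genes were called. The cochlea minus the saccule gave 1 higher and 1 lower (Kcne3 and Kcnmb2), against 3.77 percent. The saccule minus the utricle gave 0 higher and 2 lower (Kcnd2 and Kcns1), against 2.72 percent. The trend in the cochlea differed from that in the utricle for 2 genes (Kcns1 and Kcnmb2), against 3.86 percent of all genes.

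**Figure D5:**
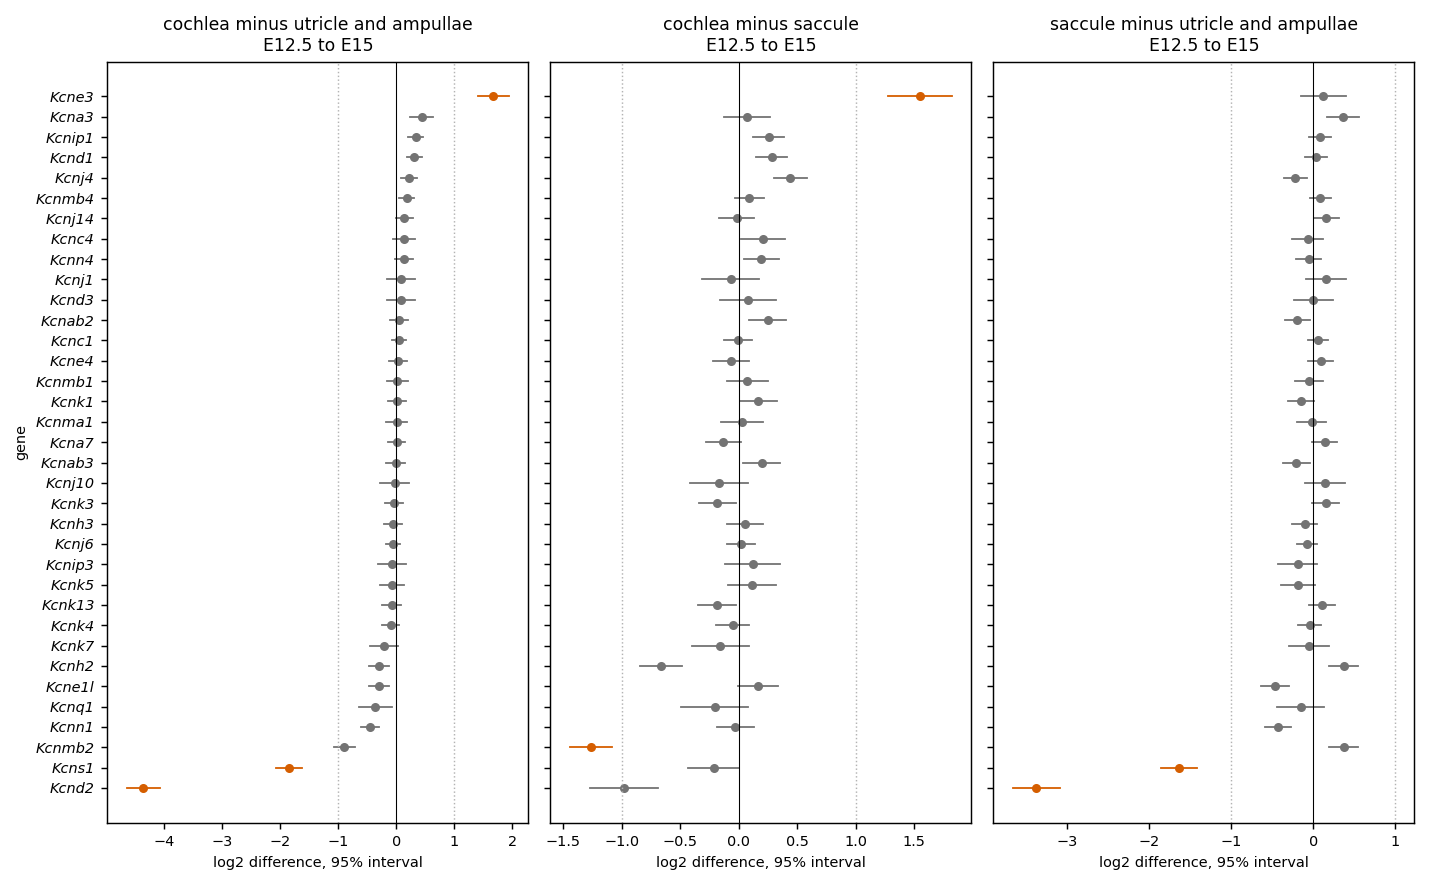
Each row is a tested potassium channel gene and each point its log2 difference between 2 organs over E12.5 to E15, with the 95% interval from limma as a bar. Orange points were called, and dotted lines mark 1 log2 either way. Kcnd2, Kcns1, Kcnmb2 and Kcne3 hold all 7 orange points, and the remaining genes lie within 1 log2 of no difference.

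The genes that handle potassium alongside these channels were listed as pumps, cotransporters, chloride channels, gap junction genes and accessory proteins, 30 genes of which 18 were tested. In the cochlea over E10.5 to E15, 6 of the 18 rose and 1 fell, where 14.9 percent of all genes were called. Gjb2, a gap junction gene of supporting cells, rose by 4.22 log2, Slc26a4, an anion exchanger of the endolymphatic sac and nonsensory epithelium, by 3.77, Esrrb, a nuclear receptor of marginal cells, by 2.34 and Atp1b1, a sodium pump beta subunit, by 1.60. The 1 that fell was Atp1b3, another sodium pump beta subunit, at -1.80 log2 (adjusted p 3.7e-14). Slc26a4, Atp1b1 and Gjb2 also rose in the saccule, where Fxyd6 fell by 1.40 log2 and 7.08 percent of all genes were called. In the utricle 1 rose, Esrrb, by 4.29 log2, where 7.53 percent of all genes were called. The cochlear list median was 0.54 log2, beside 0.06 over all genes and 0.09 over the Kcn genes. Between organs at E12.5 to E15, Esrrb gave -1.88 log2 for the cochlea minus the utricle and -2.93 log2 for the saccule minus the utricle. Kcnd2 and Kcns1 were also called lower in these 2 differences. Esrrb was the 1 partner gene lower there, while 2 partner genes were higher in the first and 0 in the second. The share of all genes called was 3.07 percent in the first and 2.72 percent in the second. The cochlea minus the saccule gave 2 partner genes higher and 0 lower, where 3.77 percent of all genes were called. Over these stages 2 partner genes had a cochlear trend above the utricular one, Gjb2 and Slc12a2, the cotransporter that brings potassium into marginal and dark cells, where 3.86 percent of all genes were called.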

How the data were processed

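Per the submitters' processing notes, the authors used MAS5 to turn each array into 1 intensity a probe set, and the deposited intensities are linear with a minimum of 10 on every array. The MAS5 version and scaling were not given in the sources used here. They carry no counts, so the precision is limited by the number of arrays and, for low signals, by the floor. Trimmed means differed 1.58-fold between arrays, so arrays were quantile normalized, and log2(signal + 16) was used, which understates changes of low signals. Probe sets at or above the array median on at least 2 arrays were kept (15337 of 22626), and of a gene's kept probe sets the one with the highest mean stood for it, giving 9352 genes. Not used were 691 probe sets that name more than 1 gene and 1555 that name no gene. In R 4.3.3, limma 3.58.1 fitted 1 coefficient for each of the 32 groups to all 64 arrays, with a variance trend, two-sided p-values and Benjamini-Hochberg adjustment over all genes of a comparison. The procedure was tested on simulated data. Figures were drawn with matplotlib 3.10.9 in Python 3.11.15.

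Genes were named by the rule that every Kcnq and Kcne gene, Kcnd2, up to 8 called Kcn genes in each direction of a comparison and up to 4 called partner genes by size are given. The cochlear trend of Atp1b1 is given beyond that rule. The members, lists and rules were chosen with earlier results of these data known. As alternatives, the pseudocount was set to 1 or 64, the filter was dropped or raised to 16 arrays, the deposited values were used without normalization, all probe sets were tested singly, a replicate block was added, and each array was left out (its partner then taking its spread from the other groups). Fits without E11, E11.5 or E14 arrays and within a time in dispase (8 to 10 minutes up to E10.5, 20 to 25 minutes from E11), over E12.5 to E15 alone, and with a block within each stage were added after the values were seen.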

Additional observations from a re-analysis of the deposited data

Results flagged for a closer look

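Of the 35 tested potassium channel genes, 2 had trends that differed between the cochlea and the utricle with ampullae over E12.5 to E15, by a limma test of the difference itself. For Kcns1 the cochlear trend minus the utricular trend was -1.86 log2 with an adjusted p of 8.6e-05, from 0.23 log2 in the cochlea and 2.09 in the utricle. Kcns1 passed the filter on dim probe sets only through 6 utricular arrays and was not tested under the filter of 16 arrays. In the fit without the filter the adjusted p was 5.8e-05. For Kcnmb2 the difference was -1.43 log2 with an adjusted p of 0.00028, from -0.14 log2 in the cochlea and 1.29 in the utricle, on its only kept probe set. Beside both, the summed hair cell markers in the utricle were 872 to 936 at E12.5 and 5122 to 6412 at E15. In the cochlea they were 1052 to 1175 and 1576 to 2384 at these stages, and in the saccule 1280 to 1575 and 8332 to 10559. The saccular trend was 0.25 log2 for Kcns1 and 1.74 log2 for Kcnmb2. The part of the hair cell markers in these differences was not tested.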

How the results depend on the processing

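The number of Kcn genes called was recomputed for each of 13 comparisons. Under a replicate block (the replicate number as a term) the counts were 2, 4, 4 and 2 for the cochlear, utricular, saccular and vestibular trends, and no count changed in any comparison. Arrays with equal numbers deviated together at -0.50 to 0.57 over 22 pairs of a stage, 18 of them over 0.1, among them all 15 pairs of E12.5 to E14.5 (0.13 to 0.57). The labels do not say what the number marks. Pool sizes often match by number, such as 10 and 13 tissues at E14 in the cochlea, utricle and saccule. At E12.5 they were 12 and 7 in the cochlea and saccule but 13 and 9 in the utricle. At E15 the saccule gave -0.50 with the cochlea and -0.34 with the utricle. The cochlea with the vestibular organ gave 0.03 at E10.5 and -0.01 at E11. Pairing is thus not excluded, the main fits do not model it, and the block was kept as an alternative. A replicate block within each stage called the same Kcn genes in the 5 comparisons between organs, and over all genes it called 203 higher and 217 lower for the trend difference, against 162 and 199. No called value changed sign. Values that were not called did, among them the saccular trend of Kcnd2 (-0.99 to 0.75 without 1 array) and the cochlear trend of Kcne3 (-0.51 over E12.5 to E15 alone, against 0.91). With a pseudocount of 1 the cochlear trend and the late inner ear against its surroundings each gave 5 genes. With a pseudocount of 64 the cochlear trend and the E10 to E9 comparison gave 0 (2 and 1 otherwise), the utricular and saccular trends 2 each, and the vestibular trend, the 3 comparisons with the surroundings, the cochlea minus the saccule, the saccule minus the utricle and the trend difference 1 each. The filter of 16 arrays, which tests fewer genes, gave 2 for the utricular trend, 0 for the trend difference, and 1 each for the cochlear and saccular trends, the 3 comparisons with the surroundings, the cochlea minus the saccule and the saccule minus the utricle. As deposited, the values gave 4 for the cochlear trend and 1 each for the vestibular trend and for the surroundings at E9 and at E11 to E15. Every probe set alone gave 4 genes for the cochlear trend, the vestibular trend and the surroundings at E9, and 2 for E10 minus E9. Without E11 or without E11.5 arrays the vestibular trend gave 1. Within E11 and later it gave 1 and the cochlear trend gave 5, and over E12.5 to E15 alone the cochlear trend gave 1. Leaving out 1 array gave 2 to 4 for the cochlear trend (4 without the first E10.5 array), 1 to 2 for the vestibular trend (1 without the first E11.5 or E12 array), 0 to 1 for E10 minus E9 (0 without the second E10 array) and 2 to 4 for the surroundings at E11 to E15 (4 without the first array of that pool). Except for the pseudocount and the filter, the cause of these moves was not tested. Low signals near the floor limit what can be seen of Kcne1, Kcne2, Kcnq5 and Kcns1.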

Other observations

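Some untested potassium channel genes had single groups above their other values. Kcnip4, a partner of A-type channels, had its highest array, 103, in the late surrounding tissue. Kcnj9, an inward rectifier gated by G proteins, had its highest array, 85.9, in the cochlea at E12.5. Kcnk10, a mechanically gated two-pore-domain channel, reached 88.7 in the late surrounding tissue, and Kcnk2, its relative, 73.8 in the saccule at E12.5.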
